A study of Mus musculus with 5 samples.

Results

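Collagen genes whose products do not form the classical banded fibrils were followed across mouse pancreas libraries: Col4a2, Col6a1, Col6a3, Col8a1 and Col13a1. They were taken by gene symbol from the deposited tables, which hold 1457 genes, and all 5 were present. They are grouped by collagen type and not by their values, although earlier results of these data were known when they were chosen. Messenger RNA was sequenced from whole pancreas of female C57BL/6 mice aged 8 weeks, in 5 libraries. One library came from wild-type pancreas after saline. Another 2 (replicates 1 and 2) came from wild-type mice given the cholecystokinin analogue caerulein, which induces acute pancreatitis, by repeated intraperitoneal injections at 50 µg/kg. The last 2 (replicates 1 and 3) came from miR-21-/- mice given caerulein in the same way. All were sampled 24 h after injections began. No knockout mouse given saline is among the libraries, and how the miR-21 allele was made is not stated. Whether the libraries come from different mice is not given by the labels either, and p-values here measure the spread between libraries, which may be technical. In limma's fit that spread is pooled over genes at a similar mean level.

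Collagens are trimers of chains that wind into a triple helix, and the types differ in what they build. Type IV chains form the sheet-like network of basement membranes, on which acini, ducts and capillaries rest. Type VI chains assemble into beaded microfibrils that link the basement membrane to the surrounding stroma, and type VIII is a short-chain collagen that forms lattices around vessels and in remodelled tissue. Type XIII is anchored in the plasma membrane and takes part in contacts between cells and matrix. In the injured pancreas, activated stellate cells are the best known source of matrix, while endothelial and epithelial cells also make basement membrane collagen.

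The unit of the deposited values is not stated, and the lowest listed value, 0.01, appears to stand for no measured signal. The depth behind each value is unknown, and none has a counting interval. The table is a chosen part of the transcriptome: the smallest of the genes' strongest ratios to saline is 2.528-fold, and 1412 of 1457 genes have a wild-type caerulein mean above saline. A rise against saline is thus nearly built into the table. The 5 libraries summed to 2818 in saline and to between 23255 and 38628 after caerulein. Across the 1429 genes tested, which are not independent, the most alike caerulein libraries were of different genotype. Spearman's rho was 0.73 for the pair of wild-type replicate 1 with knockout replicate 3, and 0.74 for wild-type replicate 2 with knockout replicate 1. The other 4 pairs were less alike, with rho of 0.35 for the wild-type pair, 0.45 for the knockout pair, and 0.45 and 0.42 for the remaining pairs of different genotype.

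After caerulein, 3 of the 5 collagens rose in wild-type pancreas, Col4a2, Col6a1 and Col8a1, and none fell. Among all tested genes 57.3% were called higher, so a share of 3 in 5 is near the background of the table. The same 3 genes, by name, were called in the knockout against the saline library, where 60.3% of tested genes were called higher. Both comparisons share that library and are not independent. Without knockout replicate 1, 0 of the 5 and 29 of all tested genes were called higher in the knockout. Col6a3 and Col13a1 were also above saline in all 4 caerulein libraries and missed the threshold. Of the tested genes 89.2% stood above saline in both wild-type libraries (1.05% below) and 94.2% in both knockout libraries (1.05% below). The median difference of the 5 genes on the log2(value + 1) scale was 3.08 in wild type and 2.90 in the knockout, against 2.71 and 2.80 for all tested genes. Whole tissue was measured, so more cells of a type and more RNA per cell cannot be told apart.

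**Figure D1:**
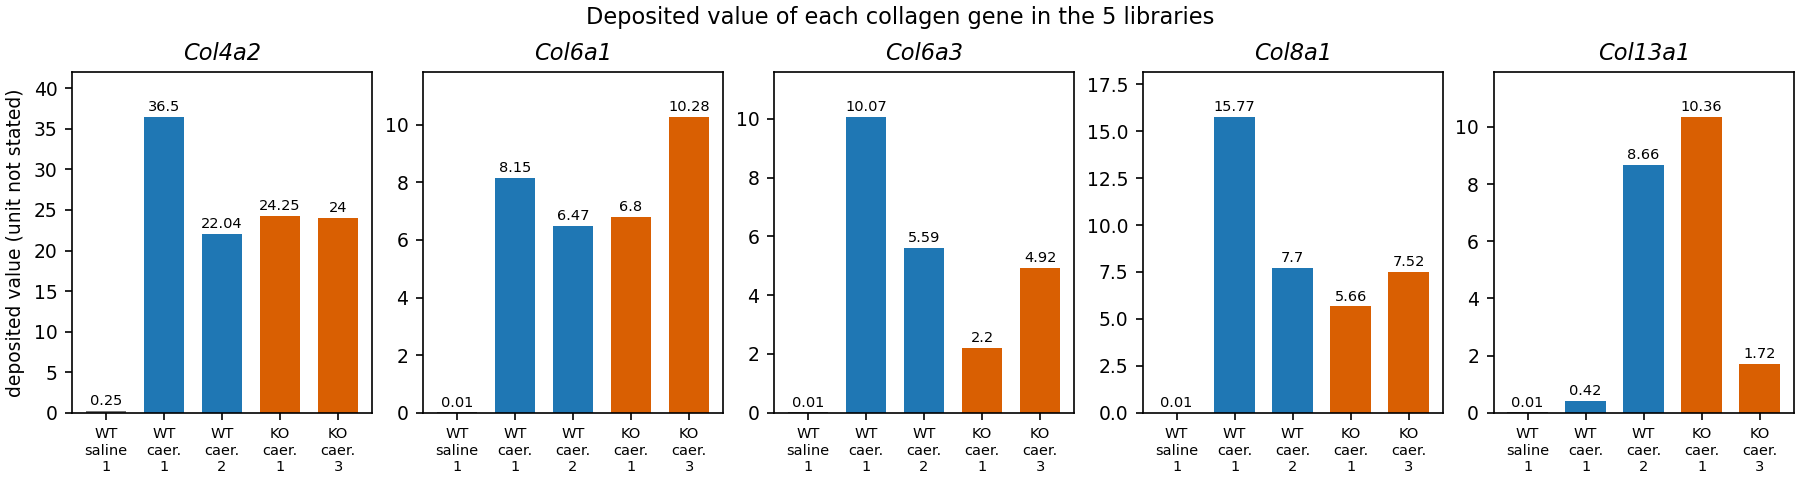
Deposited value (y axis, unit not stated, separate scale per gene) of the 5 collagen genes in the 5 libraries: wild-type saline in grey, wild-type caerulein in blue and miR-21-/- caerulein in orange, 1 bar per library with no error. Col4a2 and Col6a1 are similar in all 4 caerulein libraries, while Col13a1 is high only in wild-type replicate 2 and knockout replicate 1.

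Col4a2, a chain of the ubiquitous type IV network, was the one gene of the 5 with a value above 0.01 in saline. Of all tested genes 37.3% were listed at 0.01 in that single library. Col4a2 was 0.25 in saline, and 36.5 and 22.04 in the wild-type replicates 1 and 2 after caerulein. In knockout replicates 1 and 3 it was 24.25 and 24.00. All 4 caerulein libraries were high, and the genotypes overlapped. The ratio to saline was between 88.2 and 146.0, over a saline value so low that its own precision is unknown. The fitted difference was 4.56 (SE 1.06; limma adjusted p = 0.000508) in wild type and 4.33 (SE 1.06; limma adjusted p = 0.000750) in the knockout. Without knockout replicate 1 the knockout call was lost, at limma adjusted p = 0.0604.

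Col4a2 lies head to head with Col4a1, its partner chain in the trimer, and the window around the Col4a2 start site is printed. In RefSeq the start sites of the 2 genes lie 21 bases apart on opposite strands of chromosome 8 (GRCm38.p6). Their promoter windows overlap by 78 bases. The Col4a2 start, at 11312805 on the plus strand, comes before the Col4a1 start, at 11312826 on the minus strand. The bases printed before the Col4a2 start thus lie within the Col4a1 gene, most of them outside the Col4a1 promoter window. Col4a1 is not among the 1457 genes, so whether the partners moved together was not analysed here. The window runs from 250 bases before to 50 after the Col4a2 start site at chr8:11312555-11312854 on the plus strand, in which capitals mark GC boxes (GGGCGG, either strand) and a CCAAT box.
Col4a2 promoter: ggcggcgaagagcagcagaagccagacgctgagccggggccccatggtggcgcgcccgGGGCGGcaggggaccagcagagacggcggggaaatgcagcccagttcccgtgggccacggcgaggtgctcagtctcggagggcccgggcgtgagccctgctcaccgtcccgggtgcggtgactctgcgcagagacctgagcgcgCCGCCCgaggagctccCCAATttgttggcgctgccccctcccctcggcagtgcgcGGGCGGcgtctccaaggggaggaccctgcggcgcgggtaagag
The window is 73.7% G and C, against a median of 61.3% over the promoters of genes in the table. It holds 3 GC boxes, at -192, -48 and 8 relative to the start site, and a CCAAT box at -32. Of these the GC box at 8 alone also lies wholly in the Col4a1 window. Among promoters of the deposited genes, 63.1% hold a GC box and 38.2% a CCAAT box on either strand.

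The type VI chains were Col6a1 and Col6a3, which join with a product of Col6a2 in 1 trimer. Col6a1 was listed at 0.01 in saline, 8.15 and 6.47 in wild-type replicates 1 and 2, and 6.80 and 10.28 in knockout replicates 1 and 3. The 4 caerulein values lay close together and the genotypes overlapped. Col6a3, whose chain carries the long amino-terminal extension of the trimer, was 0.01 in saline, 10.07 and 5.59 in wild type, and 2.20 and 4.92 in the knockout. It was highest in wild-type replicate 1 and lowest in knockout replicate 1, and the genotypes did not overlap.

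Because saline is at 0.01 for these genes, the fitted difference is in effect the caerulein level on the log2(value + 1) scale and no fold is given. For Col6a1 it was 3.03 in wild type (SE 1.16; limma adjusted p = 0.0227) and 3.22 in the knockout (SE 1.16; limma adjusted p = 0.0148). For Col6a3 it was 3.08 in wild type (SE 1.78; limma adjusted p = 0.118) and 2.11 in the knockout (SE 1.78; limma adjusted p = 0.279). The error used by the fit is that of genes at a similar mean level, with an SD of 0.94 for Col6a1 and 1.46 for Col6a3, where their own libraries within groups gave 0.30 and 0.58. The Col6a1 calls did not hold without knockout replicate 1 (limma adjusted p = 0.0819 in wild type and 0.105 in the knockout) or knockout replicate 3 (0.130 and 0.220). Col6a3 passed in wild type without wild-type replicate 2 (limma adjusted p = 0.0467) and, with a pseudocount of 0.1, in both comparisons.

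The promoters of the 2 type VI genes are shown because their chains belong to 1 molecule. Any part of these sequences in the values was not tested. Both windows are on the minus strand of GRCm38.p6, Col6a1 at chr10:76725995-76726294 and Col6a3 at chr1:90843922-90844221, read in the direction of the gene. Capitals mark the AP-1 consensus TGANTCA.
Col6a1 promoter: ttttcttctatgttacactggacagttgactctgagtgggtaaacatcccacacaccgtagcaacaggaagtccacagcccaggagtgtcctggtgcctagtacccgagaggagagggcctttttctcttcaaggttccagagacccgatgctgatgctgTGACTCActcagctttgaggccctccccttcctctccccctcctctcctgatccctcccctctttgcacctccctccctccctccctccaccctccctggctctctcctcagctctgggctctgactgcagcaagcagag
Col6a3 promoter: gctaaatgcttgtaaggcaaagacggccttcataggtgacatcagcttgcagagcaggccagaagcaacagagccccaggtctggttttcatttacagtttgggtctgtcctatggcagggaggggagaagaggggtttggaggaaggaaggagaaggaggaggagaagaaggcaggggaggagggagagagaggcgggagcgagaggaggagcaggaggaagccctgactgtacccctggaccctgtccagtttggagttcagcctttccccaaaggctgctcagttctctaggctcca
The Col6a1 window holds 1 AP-1 match, at -90, a motif found in 5.4% of the promoters of genes in the table. The Col6a3 window holds none of the 4 motifs searched on both strands, which were the TATA box TATAAA, the CCAAT box, the GC box GGGCGG and the AP-1 consensus. A match here is a run of letters and not a measured binding site. Each window has 3 CpG dinucleotides, against 33 in that of Col4a2.

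Col8a1, a chain of the short-chain network collagen, was listed at 0.01 in saline, 15.77 and 7.70 in wild-type replicates 1 and 2, and 5.66 and 7.52 in knockout replicates 1 and 3. Wild-type replicate 1 stood well above the other libraries, and the genotypes did not overlap, by a margin of 7.52 against 7.70. The fitted difference was 3.58 in wild type (SE 1.10; limma adjusted p = 0.00554) and 2.90 in the knockout (SE 1.10; limma adjusted p = 0.0195). The knockout call did not hold without knockout replicate 1 (limma adjusted p = 0.103) or replicate 3 (0.144). The Col8a1 promoter window holds 4 GC boxes, at -170, -73, -66 and -23.

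Col13a1, the transmembrane collagen, was uneven within each genotype. It was 0.01 in saline, 0.42 and 8.66 in wild-type replicates 1 and 2, and 10.36 and 1.72 in knockout replicates 1 and 3. One library of each genotype was high and the other low, and the highest value was 24.7 times the lowest. The libraries that were high are the pair with rho 0.74 and those that were low the pair with rho 0.73. Of the tested genes 19.7% were, like Col13a1, lower in both wild-type replicate 1 and knockout replicate 3 than in the other caerulein libraries, and 40.1% were higher in both. The fitted difference from saline was 1.87 in wild type (SE 2.35; limma adjusted p = 0.467) and 2.46 in the knockout (SE 2.35; limma adjusted p = 0.336). Without wild-type replicate 1 the knockout difference stayed at 2.46 and its SE fell to 1.08, so only the error used by the fit changed. The wild-type difference was then 3.26 (SE 1.24), from replicate 2 alone. The Col13a1 promoter window holds a match to TATAAA at -237, a motif found in 8.1% of the promoters of genes in the table. It holds neither a GC nor a CCAAT box.

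The evenness of the 5 genes over the caerulein libraries thus ran from among the steadiest in the table to among the most variable. The SD of log2(value + 1) over the 4 libraries was 0.27 for Col6a1, below which 6.0% of tested genes lay, and 0.32 for Col4a2, below which 9.0% lay. It was 0.57 for Col8a1 and 0.73 for Col6a3, around the median of 0.71. For Col13a1 it was 1.45, and 89.2% of tested genes had a smaller SD. These SDs pool both genotypes, are ranked over genes of all mean levels and describe the libraries without a test. Within groups the SD of Col13a1 was 1.73, below the 1.92 that the fit took from genes at a similar mean level. The SD within groups was below the one used by the fit for each of the 5 genes.

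**Figure D2:**
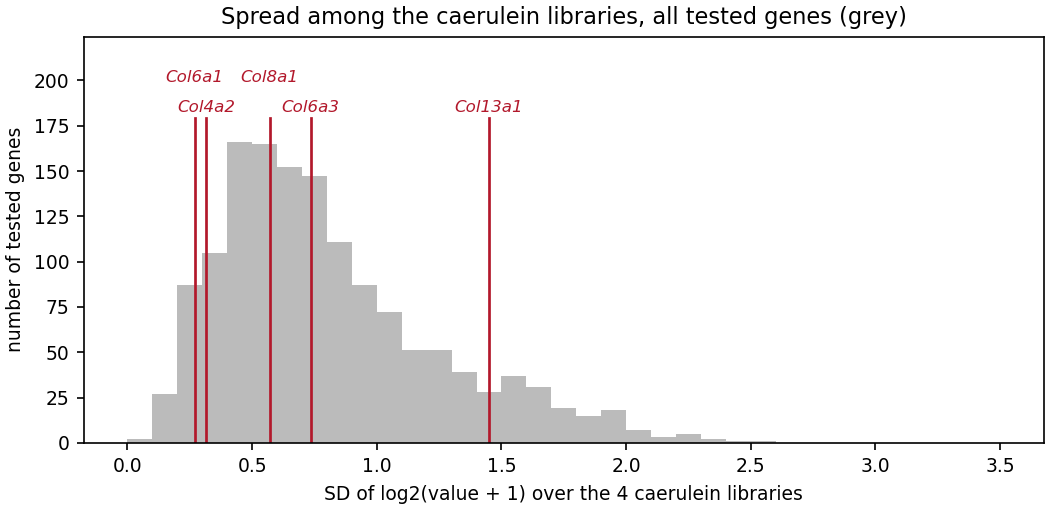
Number of tested genes (y axis, grey bars) by the SD of log2(value + 1) over the 4 caerulein libraries (x axis), with a red line at each collagen gene. Col6a1 (0.27) and Col4a2 (0.32) lie at the steady end, Col8a1 (0.57) and Col6a3 (0.73) near the middle and Col13a1 (1.45) in the upper tail. Genes of all mean levels are shown together.

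The comparison of knockout with wild type after caerulein addressed whether the levels after injury differ in mice without miR-21. None of the 5 genes passed. In limma's fit 0 of 1429 genes passed and 7 had an unadjusted p under 0.05, with none of the 5 among them. Col6a3 and Col8a1 were lower in both knockout libraries than in both wild-type libraries, which held for 4.55% of tested genes, and none of the 5 was higher in both, as 4.76% of tested genes were. Col6a3 averaged 3.56 ± 1.92 (SD, n = 2) in the knockout and 7.83 ± 3.17 (SD, n = 2) in wild type, a fitted difference of -0.97 with a 95% interval from -3.83 to 1.88. Col8a1 averaged 6.59 ± 1.32 (SD, n = 2) and 11.7 ± 5.71 (SD, n = 2), a fitted difference of -0.68 with a 95% interval from -2.44 to 1.07. Limma's adjusted p was 0.9997 for each of the 5 genes.

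The other 3 overlapped between genotypes. Col4a2 averaged 24.1 ± 0.177 (SD, n = 2) in the knockout and 29.3 ± 10.2 (SD, n = 2) in wild type, with a fitted difference of -0.23 (95% interval -1.93 to 1.48). Col6a1 had a fitted difference of 0.18 (95% interval -1.67 to 2.03) and Col13a1 of 0.59 (95% interval -3.17 to 4.35). These intervals include a 2-fold change in either direction for each of the 5, so neither a difference nor likeness between the genotypes is shown. The signs of the Col4a2, Col6a1 and Col13a1 differences turned when single libraries were left out, Col4a2 to 0.13 and Col13a1 to -0.80 without wild-type replicate 1, Col13a1 to -0.445 without knockout replicate 1, and Col6a1 to -0.08 without knockout replicate 3.

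**Figure D3:**
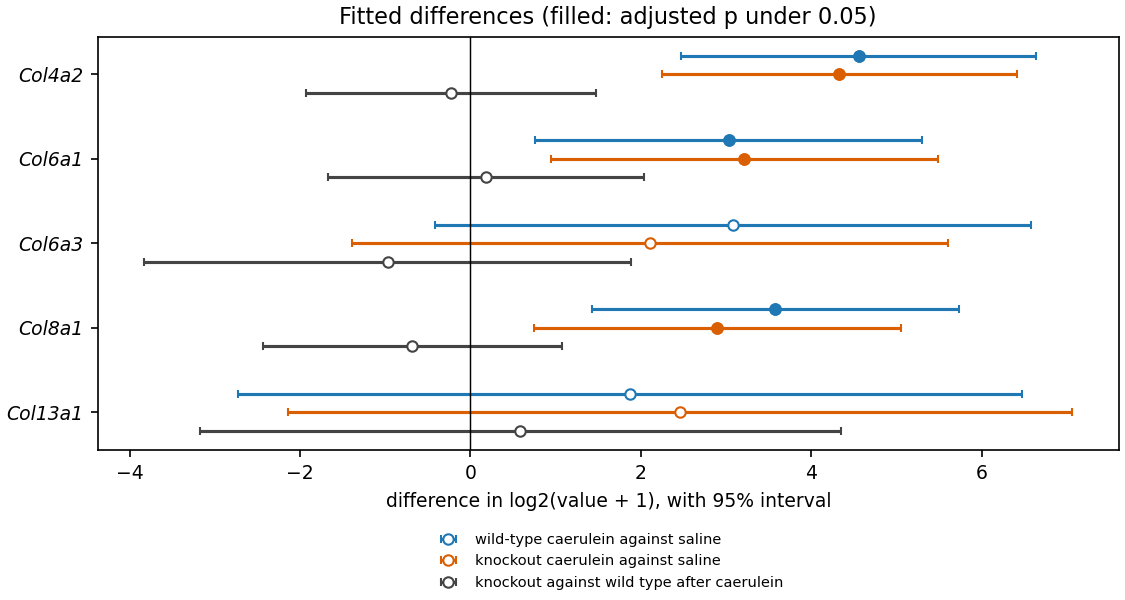
Difference in log2(value + 1) (x axis) with its 95% interval for each collagen gene (y axis) in the 3 comparisons, from the fit over all tested genes. Filled points passed at an adjusted p under 0.05: Col4a2, Col6a1 and Col8a1 against saline in each genotype (blue, orange), and no gene between the genotypes (dark grey).

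The caerulein libraries were also brought to a common median ratio, a scaling that leaves ratios between genes untouched. The wild-type libraries then lay closer together for Col4a2, Col6a3 and Col8a1, and the knockout libraries lay farther apart for each of the 3. Col8a1 was then 10.66 and 11.68 in the wild-type libraries and 5.06 and 7.70 in the knockout. Col6a3 was 7.46 and 7.74 in wild type and 1.97 and 5.04 in the knockout. Col4a2, which overlapped as deposited, was 27.04 and 30.52 in wild type and 21.66 and 24.57 in the knockout. On this scale 3 of the 5 genes were lower in both knockout libraries, against 7.49% of tested genes, and Col6a1 and Col13a1 overlapped.

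The ratio of the type VI chains does not depend on how the libraries are scaled. Col6a3 over Col6a1 was 1.24 and 0.864 in wild-type replicates 1 and 2, and 0.324 and 0.479 in knockout replicates 1 and 3. On the log2 scale it averaged 0.05 ± 0.37 (SD, n = 2) in wild type and -1.35 ± 0.40 (SD, n = 2) in the knockout, a difference of -1.39. Both knockout ratios were below both wild-type ratios. An exact two-sided permutation test gave p = 0.333, which is the smallest p that 2 libraries against 2 allow, so it could not pass 0.05. The plan had set no test for this ratio. The share of other gene pairs whose ratios separate the genotypes was not computed, and Col6a3 alone already separated them. The lowest ratio rests on the Col6a3 value of 2.20 in knockout replicate 1.

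**Figure D4:**
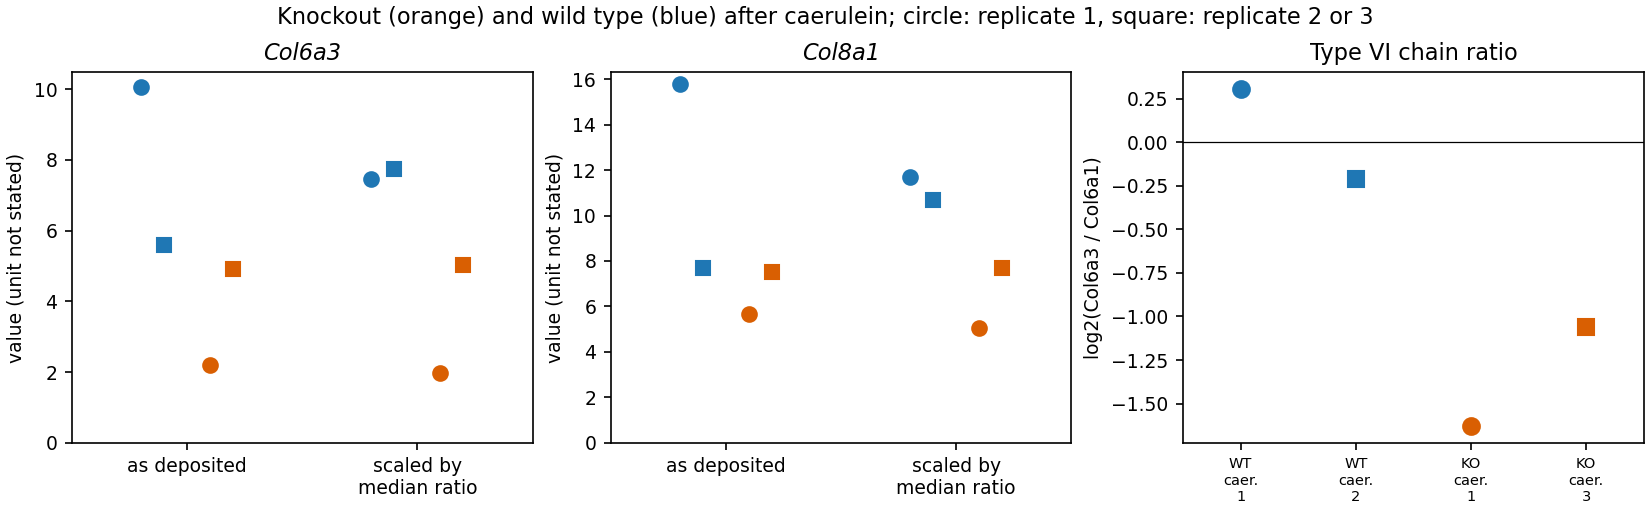
Values of Col6a3 and Col8a1 (y axis, unit not stated) in the 4 caerulein libraries, as deposited and scaled by the median ratio, and the log2 ratio of Col6a3 to Col6a1 per library, with wild type in blue and knockout in orange. In each panel both knockout points lie below both wild-type points. For single genes this held for 4.55% of tested genes as deposited and 7.49% after scaling.

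The sequences of the microRNA deleted in the knockout and of a microRNA family known to target collagen transcripts are shown with the matches found in the 5 genes. Mature sequences are from RefSeq (GRCm38.p6), with the seed, bases 2 to 8, in capitals.
miR-21a-5p: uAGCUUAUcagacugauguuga
miR-29a-3p: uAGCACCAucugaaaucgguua
miR-29b-3p: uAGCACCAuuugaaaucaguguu
miR-29c-3p: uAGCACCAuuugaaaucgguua
The match to the miR-21 seed, ATAAGCT, was in none of the 3′ UTRs of the 5 genes (GENCODE M21, longest 3′ UTR per gene, 470 to 2653 bases), where 8.2% of genes in the table hold it. The match to the seed that the 3 miR-29 members share, TGGTGCT, was in 3 of the 5, Col4a2, Col6a3 and Col8a1, against 15.1% of genes in the table. The sites are printed in the sense of the transcript, with the match in capitals.
Col4a2, base 43 after the stop codon: tgggaaggccacgtTGGTGCTt
Col4a2, base 214: caccacacccagctTGGTGCTt
Col6a3, base 174: gtgacctgtcaataTGGTGCTa
Col8a1, base 2199: tgtatattctaccaTGGTGCTa
Col6a1 and Col13a1 had no match to either seed. Longer UTRs hold more matches by their length alone, and the 3′ UTR of Col8a1, at 2653 bases, is above the median of 1290 in the table. A match describes the letters of the transcript and says nothing of repression in these libraries.

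Other basement membrane genes, the partners of type IV collagen, were mixed. Of 28 symbols listed 8 were in the table, 4 rose in wild type and 3 in the knockout, and none fell, with median differences of 3.45 and 2.12. Both shares are below those over all tested genes (57.3% and 60.3% higher), and with a library left out 3 to 7 rose in wild type and 0 to 3 in the knockout. Lama2, a laminin chain of muscle and stromal basement membranes, was 0.01 in saline, 9.74 and 15.79 in wild type and 22.45 and 9.38 in the knockout. Lama4, the laminin chain of vessel walls, was 0.01, then 13.35 and 10.64, and 9.93 and 16.36. Both rose in each genotype, as did Agrn, the proteoglycan agrin. Pxdn, the peroxidase that cross-links type IV collagen, rose in wild type and was 5.17 and 2.86 in the knockout, where it did not pass.

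Nid1, which bridges laminin and type IV collagen, was the one listed basement membrane gene below saline. It was 11.73 in saline, 7.74 and 0.84 in wild type and 2.02 and 8.46 in the knockout, and did not pass (limma adjusted p = 0.195 in wild type and 0.325 in the knockout). Lamb1, a laminin beta chain, followed a similar pattern among the caerulein libraries, at 12.89 and 2.26 in wild type and 1.43 and 9.41 in the knockout, above 0.80 in saline. Both genes were high in wild-type replicate 1 and knockout replicate 3, opposite to Col13a1. With Lama4 and Agrn, 4 of the 8 genes were higher in both of these libraries, beside 40.1% of tested genes. Lama2 alone had the order of Col13a1, beside 19.7% of tested genes. Of the 8 genes, 3 were lower in both knockout libraries than in both wild-type libraries, none of them called, beside 4.55% of tested genes. They were Lama5, an epithelial laminin chain (12.58 and 7.85 in wild type, 3.07 and 2.85 in the knockout), Hspg2, which encodes perlecan (20.53 and 6.69, 4.25 and 6.43), and Pxdn (11.04 and 9.83).

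Of 36 listed genes that fold, modify and cross-link collagen 7 were in the table. In each genotype 6 of the 7 rose, beside 57.3% and 60.3% of tested genes, with median differences of 3.55 and 3.67 beside 2.71 and 2.80. Lox, the lysyl oxidase that cross-links collagen, was 0.01 in saline, 57.44 and 10.71 in wild type and 21.58 and 24.01 in the knockout. Plod1, a lysyl hydroxylase, and P4ha2, a prolyl hydroxylase subunit, rose in both genotypes, as did Crtap, Loxl2 and Adamts2. Sec23a, a coat protein for secretory cargo such as collagen, was 5.72 and 5.98 in wild type and 11.43 and 3.64 in the knockout and did not pass. Without knockout replicate 1, 0 of the 7 passed in the knockout, where 29 of all tested genes did.

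Among 22 receptors listed 6 were in the table, and 3 rose in wild type and 2 in the knockout, shares below the 57.3% and 60.3% of tested genes. With a library left out 1 to 5 rose in wild type and 1 to 3 in the knockout. Antxr1, a transmembrane receptor that binds collagens including type VI, was 0.01 in saline, 9.17 and 10.04 in wild type and 19.25 and 4.56 in the knockout, and rose in both. Its relative Antxr2 was 2.79 and 10.25 in wild type and 6.72 and 3.8 in the knockout and did not pass. Sdc1, a heparan sulfate proteoglycan of the cell surface, rose in both genotypes. Cd44, the hyaluronan receptor, rose in wild type only narrowly (limma adjusted p = 0.0489), was 15.53 and 6.31 there, and stood at 5.22 and 4.42 in the knockout. Itga6, a laminin-binding integrin chain, and Itgav did not pass.

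Of 24 microfibril, elastic fibre and small proteoglycan genes listed 6 were in the table, and 5 rose in each genotype, beside 57.3% and 60.3% of tested genes. In wild type 3 rose without wild-type replicate 1, and in the knockout 0 rose without knockout replicate 1 and 3 without knockout replicate 3. Eln, elastin, was 3.83 in saline and even after caerulein, at 51.91 and 43.16 in wild type and 45.47 and 38.21 in the knockout. Fbn1, the fibrillin of microfibrils, was 0.01 in saline and uneven, at 39.78 and 3.23 in wild type and 4.28 and 8.50 in the knockout. Fmod, fibromodulin, Efemp1 and Ogn rose as well, and Fbln1 did not pass. Of 21 fibrillar and fibril-associated collagens listed 6 were in the table, and 5 of them rose in each genotype, Col16a1 being the one that missed the threshold, beside the same background. Without knockout replicate 1, 2 of the 6 rose in the knockout. Of 27 matrix proteases and inhibitors 4 were in the table, Mmp15, Timp3, Adam12 and Plat, and each passed in both genotypes, against 57.3% and 60.3% of tested genes. In the knockout 0 of these passed without knockout replicate 1 and 2 without replicate 3, and in wild type 2 passed without either of them.

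**Figure D5:**
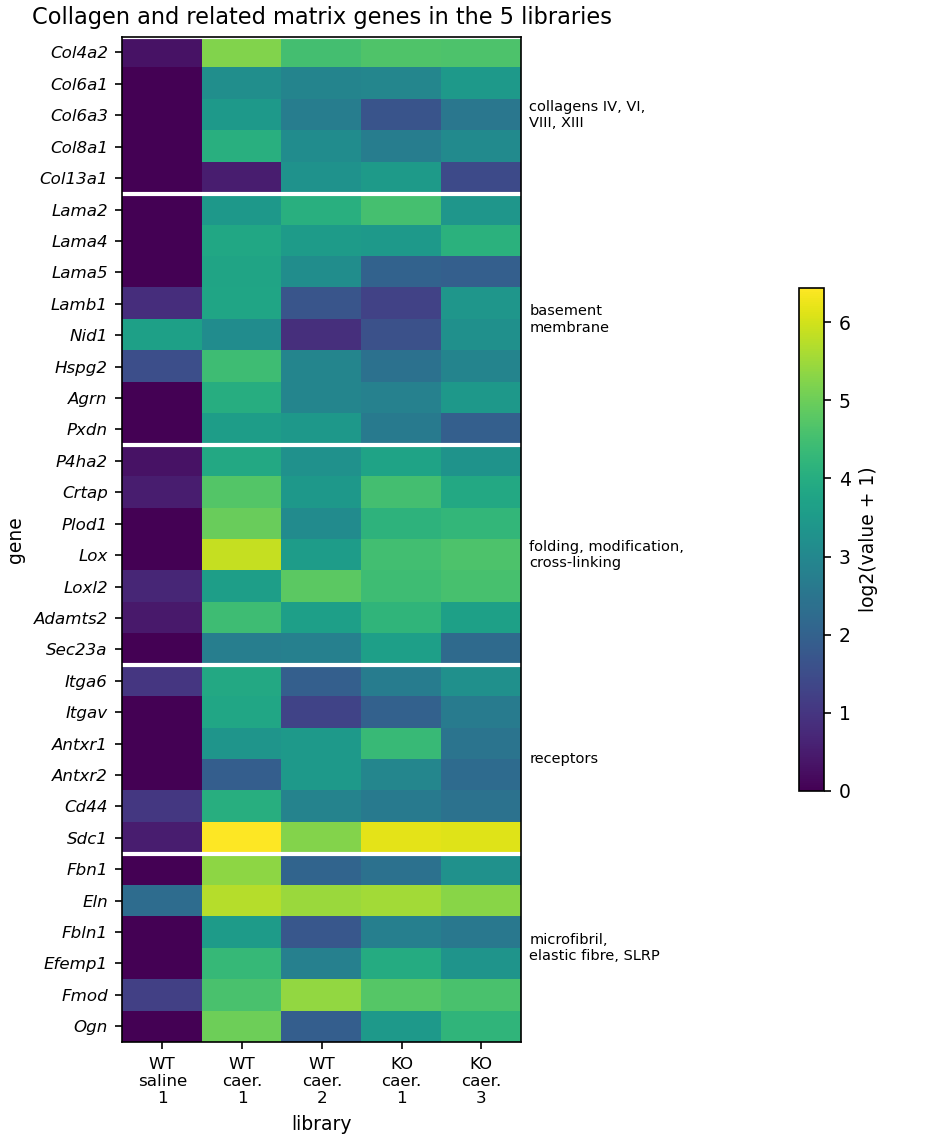
log2(value + 1) as colour for the collagen genes and the listed matrix genes in the table (rows, grouped by list) in the 5 libraries (columns). The saline column is dark for most genes, Nid1 being the exception, and Lamb1 and Nid1 are brighter in wild-type replicate 1 and knockout replicate 3, where Col13a1 is darker. Of all tested genes 40.1% were higher in both of those libraries.

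The genes whose profile over the 5 libraries lay nearest to each collagen, by the root mean square difference of mean-centred log2(value + 1), were mostly not matrix genes. Among those near to Col4a2 were Hsp90aa1 (0.19) and Tes (0.19), and nearest to Col6a1 were Sh3d19 (0.08), Pim1 (0.09) and Larp7 (0.11). Nearest to Col6a3 were Eps8 (0.18), Rgl1 (0.18) and Atp13a3 (0.18), and to Col8a1 Mms19 (0.14), Ctps2 (0.16) and Zmiz1 (0.17). Col13a1 had no neighbour as close, with Utp6 at 0.39, Cyr61 at 0.42 and Tceal8 at 0.45. Eps8 was 12.97 and 4.97 in wild type and 2.86 and 5.14 in the knockout, so unlike Col6a3 its genotypes overlapped. Cyr61, a secreted matricellular protein, was 4.35 and 15.64 in wild type and 20.41 and 3.84 in the knockout, high in the same libraries as Col13a1. Among the 5 collagens themselves the closest pair was Col6a3 and Col8a1 (0.34), closer than the type VI pair (0.59), while Col13a1 was at least 1.34 from each of the others.

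Few markers of cells that can make these collagens were in the table. Of 18 stellate cell and fibroblast markers listed 4 were in the table, Pdgfra, Pdgfrb, Postn and Col3a1, of which Pdgfrb alone was at 0.01 in saline. Their sum, most of it Col3a1, was 1.71 in saline, 629 and 74.5 in wild-type replicates 1 and 2, and 113 and 314 in knockout replicates 1 and 3. Pdgfrb, a receptor of stellate cells and pericytes, was 13.53 and 4.94 in wild type and 5.94 and 6.81 in the knockout. Pdgfra, a receptor of fibroblasts, was 0.99 in saline, 11.51 and 0.90 in wild type and 1.28 and 3.62 in the knockout, and did not pass in either (limma adjusted p = 0.604 and 0.773). Of 16 endothelial markers only Vwf was in the table, at 2.08 in saline, 10.15 and 22.93 in wild type and 27.77 and 15.25 in the knockout. Of 10 pericyte and smooth muscle markers only Rgs5 was, at 0.01 in saline, 22.56 and 11.16 in wild type and 6.31 and 15.69 in the knockout. The 6 macrophage markers in the table, of 18 listed, summed to 1.93 in saline, 104 to 252 in wild type and 175 to 183 in the knockout. The part of these cells in the collagen values was not tested. Of 26 acinar markers 4 were in the table, Prss1, Prss3, Klk1 and Cckar, so the tissue label could be checked against few of its enzymes. Their sum was 11.3 in saline, 983 and 38.5 in wild-type replicates 1 and 2, and 315 and 636 in knockout replicates 1 and 3, while Prss1 was at 0.01 in saline and in both wild-type caerulein libraries and at 6.5 and 12.28 in the knockout. The libraries with the higher acinar sums, wild-type replicate 1 and knockout replicate 3, were those in which Col13a1 was low. The stellate cell sum and Rgs5 were also higher in both of them, and the macrophage sum narrowly, at 183 in knockout replicate 3 against 175 in knockout replicate 1. By gene this order held for 3 of the 4 acinar, 3 of the 4 stellate cell and 2 of the 6 macrophage markers. It held for 40.1% of tested genes. Vwf and the macrophage marker Ly6c2 were, like Col13a1, lower in both of these libraries, beside 19.7% of tested genes.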

How the data were processed

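Per the labels' protocols, poly(A) RNA of whole pancreas was fragmented and random-primed for Illumina sequencing. Bowtie 0.12.2 and the build mm8 appear in the submitters' processing notes. How genes were quantified, normalized and selected is not given in the sources used here. In each library the authors deposited a signal per gene symbol, of no stated unit, for 1457 genes and 1 blank row per file, which was dropped. Depth is unknown, since the values are not whole numbers and no common step was found among low values.

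Without rescaling, log2(value + 1) was taken, so differences understate the change of low genes. The filter kept 1429 of 1457 genes, those reaching 1 in 2 or more libraries, and all 5 collagens passed it. All 5 libraries entered 1 limma 3.58.1 fit (R 4.3.3) with a mean for each group. Variances were moderated with limma's robust empirical Bayes method and a trend on the mean level. Benjamini-Hochberg adjustment ran over all tested genes, with a threshold of 0.05. The 2 residual degrees of freedom come from the caerulein groups, whose spread stands in for that of saline. For each of the 5 collagens the fit gave no weight to the gene's own spread. It used the SD of genes at a similar mean level, for Col4a2 0.87 where its own was 0.35. The p-values and intervals therefore rest on 2858 degrees of freedom pooled over the tested genes, which are not independent. The scripts were tested on simulated data.

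The collagens, the gene and marker lists and the naming rule were chosen with earlier results of these data known. Named genes are the 5 collagens, members of the lists that are in the table, and for each collagen the 3 tested genes with the nearest profile, of which 1 is not reported here. The count test planned in case of read counts was not needed. Promoters were matched by symbol in RefSeq (GRCm38.p6), with an entry for 1086 of 1457 genes, and 3′ UTRs in GENCODE M21 for 1362; neither is the build of the files, so they serve for sequence only. Alternatives were other scalings, filters, a pseudocount of 0.1, other variance estimates, a fit of the 2 groups alone, and each caerulein library left out in turn. Python 3.11.15 and scipy 1.17.1 were used for descriptions and the exact permutation test.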

Additional observations from a re-analysis of the deposited data

How the results depend on the processing

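No paired analysis was possible because the groups share only replicate number 1. A variance estimate without a trend was added after seeing the data. With quantile normalization, which forces the saline library to match the others, 0 of the 5 genes passed against saline in either genotype, and of all 1429 tested genes 0 were higher and 9 (wild type) and 6 (knockout) lower. In wild type the differences were 1.76 for Col4a2, 0.395 for Col6a1 and 1.105 for Col8a1, with Col13a1 reversed to -0.35, and in the knockout 1.44, 0.705 and 0.34, with Col6a3 and Col13a1 reversed to -0.25 and -0.19. With equal sums the median of all genes fell from 2.71 to 0.79 in wild type, Col6a1 did not pass (2.42 in wild type, 2.51 in the knockout) and neither did Col8a1 in the knockout (2.21). Of the 5 genes 2 passed in wild type and 1 in the knockout, and of all 1429 genes 210 and 206 were higher and 40 and 29 lower. With only genes above 0.01 in all libraries Col4a2 alone was tested and passed, 1 gene in each comparison. A pseudocount of 0.1 took Col6a3 past the threshold (6.11 and 4.95). With only the 2 groups compared Col6a1 did not pass in wild type (3.03) and Col13a1 passed in the knockout (2.46). Without a trend of the variance Col6a1 did not pass in wild type (3.03) nor Col8a1 in the knockout (2.90).

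With a library left out, the number passing ranged from 2 to 4 in wild type and 0 to 4 in the knockout; over all genes 377 to 1078 and 29 to 1025 were called higher. The wild-type differences ranged from 4.20 to 4.91 for Col4a2, 2.89 to 3.18 for Col6a1, 2.71 to 3.45 for Col6a3, 3.11 to 4.05 for Col8a1 and 0.49 to 3.26 for Col13a1. The knockout differences from saline ranged from 4.32 to 4.34, 2.95 to 3.48, 1.66 to 2.55, 2.72 to 3.08 and 1.43 to 3.49 in that order. Between genotypes they ranged from -0.58 to 0.13, -0.084 to 0.45, -1.42 to -0.53, -1.16 to -0.21 and -0.80 to 1.97, so Col6a3 and Col8a1 kept their sign and 0 of the 5 passed under any setting. These fits have 1 residual degree of freedom, and the group left with a single library borrows the spread of the other genotype. That spread is moderated toward that of genes at a similar mean level. The cause of these changes was not tested.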
